A study of Arabidopsis lyrata subsp. lyrata with 8 samples.

Results

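Root hairs are outgrowths of single epidermal cells that elongate at the tip, and this account covers 10 genes known in Arabidopsis thaliana to switch that growth on or to carry it out. They were RHD6, RSL1, RSL2, RSL4, COW1, RHD2, CSLD3, ADF8, ADF11 and MRH6. The members were chosen by their A. thaliana locus codes, and a gene was taken up where a gene model name on the array contained its code. Of the 10 codes, 6 had a model: RSL1 (AT5G37800), RSL2 (AT4G33880), RSL4 (AT1G27740), RHD2 (AT5G51060), CSLD3 (AT3G03050) and ADF8 (AT4G00680). Each had 1 model and 1 probe, out of 32386 gene models in all. RHD6, COW1, ADF11 and MRH6 were not matched by code and are not analysed here.

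Roots were compared with flower buds in Arabidopsis lyrata ssp. lyrata, a species close to A. thaliana. Both came from healthy plants aged 6 weeks in hydroponic culture, with seed labelled "col 0" and stratified for all samples alike. There were 4 root and 4 flower bud replicates, each being tissue pooled from 8 to 10 plants and hybridised with Cy3 alone to a custom Agilent array. The labels give no genetic change or treatment that distinguishes the groups. Whole organs were taken, and root hair cells are a fraction of a root. In such bulk samples fewer cells of a type and less RNA per cell cannot be told apart.

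In A. thaliana, RHD6 and RSL1 are basic helix-loop-helix (bHLH) transcription factors that act together in cells fated to make a hair, and they switch on the class II factors RSL2 and RSL4, of which RSL4 sets how long the hair grows. The growing tip then depends on a reactive oxygen burst from the NADPH oxidase RHD2 (RBOHC), which sustains a calcium gradient, on wall glycan made by CSLD3, and on an actin skeleton turned over by actin-depolymerizing factors such as ADF8. Pollen tubes grow at the tip in a similar way, using other members of the same families.

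Facts of the whole series are these. For flower bud arrays 1 and 2 the variance between arrays was 0.777 times that between repeated spots on an array, so they agreed within measurement noise, and for arrays 3 and 4 the ratio was 0.919; all other pairs within a tissue lay between 5.67 and 23.9. Each of the close pairs was counted as 1 sample, called A and B here, so 4 root samples were set against 2 flower bud samples; their number limits the precision. All root arrays lay in 1 row of the single slide and all bud arrays in the other, and the effects of row and tissue cannot be told apart. The tissue labels were checked on markers: PYK10, CASP1 and SCR were higher in root (3 of 3 tested; SCR lost its call under spike-in scaling, at 0.81), and AP1, AP3, PI and SEP3 were higher in flower bud (4 of 4). AP3, PI and SEP3 were also well above background on all 4 root arrays, and the 3 root markers on all 4 flower bud arrays, so each tissue's array carried some signal for the other's genes. Levels are log2 signals relative to each array's 75th percentile, and differences are root minus flower bud on that scale. Calls needed a limma p under 0.05 after Benjamini-Hochberg adjustment over 26420 models, and a fold of at least 2.

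All 6 measured genes were higher in root, from 4.06-fold for CSLD3 to at least 649-fold in processed signal for RSL2, and 0 were higher in flower bud. Over all models tested, 23.7% were called for root and 27.7% for flower bud. In each of the 6 genes the lowest root sample lay above the highest flower bud sample, which held for 39.4% of all models, the reverse holding for 41.3%. The median difference of the 6 was 3.83 (3.82 with bounded genes at their bound), beside -0.03 over all models. All 6 passed the filter on dim signals through their root levels, and 3 of them, the bHLH factors, passed through root alone. With no flower bud array well above background, passing through root largely fixed the direction of those 3, so the 6 of 6 is given as a description.

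The bHLH factors come first in the pathway, and all 3 measured ones were well above background in root only. RSL2 stood at -0.35, -0.45, -0.70 and -0.69 in root replicates 1 to 4, against -10.09 and -9.76 in flower bud samples A and B. The root samples lay close together and far above both bud samples. The difference was 9.38 ± 0.17 (SE, n = 4 root and 2 flower bud samples; limma adjusted p = 7.68e-08), and 0.836% of all models had a larger one towards root. RSL2 was not well above background on any of the 4 flower bud arrays, so its fold is given as a bound on the processed signal, at least 649-fold. Such a bound sets the root mean against whichever was higher on each bud array: the gene's own signal, or the dimmest signal that still counted as well above background. Where the gene's own signal was the higher on every array, the bound is the measured fold. All bounds given here, in either direction, hold for the processed signal only. The dimmest such signal is not a detection limit. RSL1 lay at -8.86 on flower bud array 1, above that array's -10.08, yet was not well above background there. The bounds therefore lie near the measured fold, 665 for RSL2, and do not limit the fold in RNA.

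RSL4, which with RSL2 forms the later step, stood at -4.67, -4.78, -5.09 and -5.41 in root replicates 1 to 4, against -10.13 and -9.81 in flower bud samples A and B. Replicate 4 was the lowest root, still far above both bud samples. The difference was 4.98 ± 0.24 (SE, n = 4 and 2; limma adjusted p = 3.64e-06), and the bound was at least 30.5-fold. RSL1, of the earlier step, stood at -4.80, -5.34, -5.41 and -5.08 in root replicates 1 to 4, against -9.45 and -9.73 in flower bud samples A and B. Here replicate 1 was the highest root and replicate 3 the lowest, and the tissues again did not overlap. The difference was 4.43 ± 0.21 (SE, n = 4 and 2; limma adjusted p = 3.42e-06), at least 21.2-fold.

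**Figure D1:**
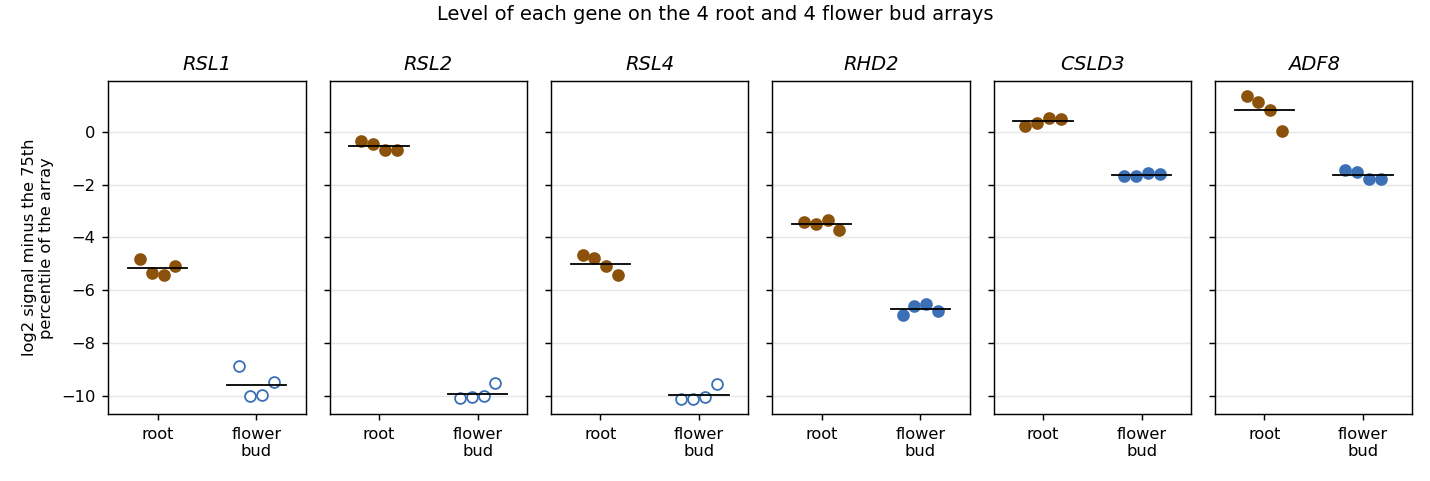
Level of each of the 6 genes (log2 signal relative to the array's 75th percentile) on the 4 root arrays, left, and the 4 flower bud arrays, right, in each panel. Points are arrays in replicate order, filled where the probe was well above background and open where it was not, and bars are group means; RSL1, RSL2 and RSL4 are open on all 4 flower bud arrays, and no root point of any gene reaches down to its flower bud points.

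The raw spot signals show how near the factors lay to the array's own background. The 308 negative-control spots had a median raw signal of 39 to 42 on root arrays and 38 on every flower bud array. Raw signals are not scaled between arrays. The 75th percentile of processed signal was 4499, 3645, 2986 and 2541 on root arrays 1 to 4, and 4716 to 5054 on flower bud arrays. A fall in raw signal from root array 1 to 4 is therefore partly one of the whole array. RSL2 read 3416, 2623, 1818 and 1571 raw units on root arrays 1 to 4, against 40, 37.5, 39 and 35.8 on flower bud arrays 1 to 4. Its bud signal thus sat at the level of spots with no target. RSL4 read 227, 181, 130.5 and 103 on the root arrays, against 38.5, 35.5, 36 and 38.8 on the flower bud arrays. RSL1, with a single spot, read 190, 129.5, 110 and 116 on the root arrays, against 55, 51, 50 and 47.5 on the flower bud arrays. In root both exceeded the 99th percentile of the negative controls on every array, and in flower bud neither exceeded it on any array. RSL1's bud readings lay above the median of the negative controls but below their 99th percentile on all 4 arrays, so RSL1 was not detectable there.

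The 3 folds depend on how background is treated. With normexp correction, which models background and then adds 50 to every signal, so that dim genes have smaller folds, RSL2 was at 5.66 and 5.50, RSL4 at 1.96 and 1.88, and RSL1 at 1.52 and 1.499 (with the 75th percentile and with quantiles). All 3 kept their calls in both, but their folds there were below the bounds above, which hold for the processed signal only.

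**Figure D2:**
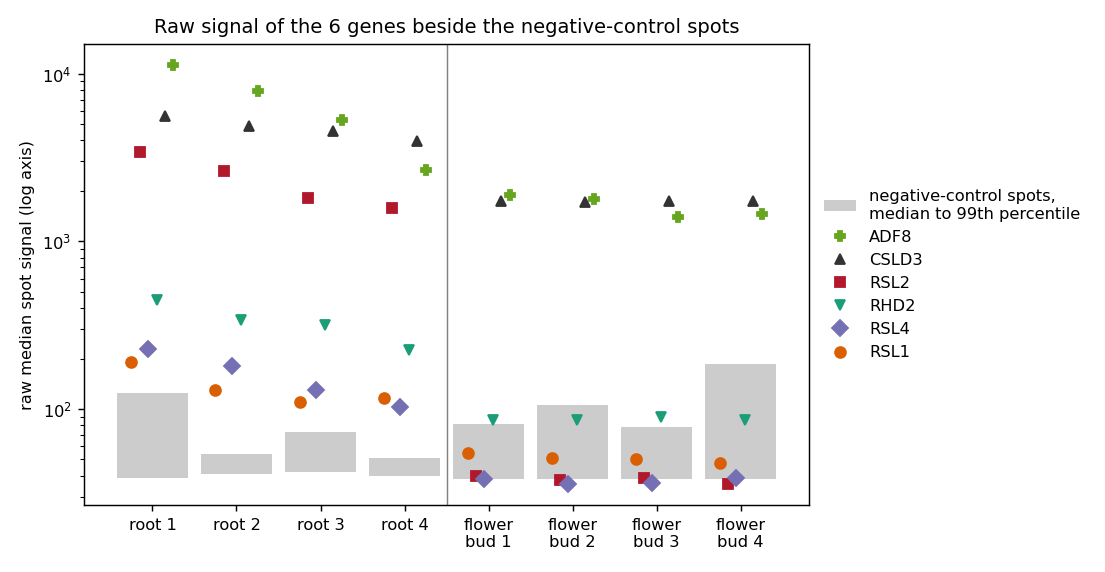
Raw median spot signal (log axis) of the 6 genes on root arrays 1 to 4, left, and flower bud arrays 1 to 4, right, with the span from the median to the 99th percentile of the negative-control spots in grey. RSL2 read 1571 to 3416 on root arrays and 35.8 to 40 on flower bud arrays, at the foot of the grey span.

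The genes of the growing tip were measured in both tissues. RHD2, the NADPH oxidase, stood at -3.40, -3.50, -3.33 and -3.72 in root replicates 1 to 4, against -6.77 and -6.64 in flower bud samples A and B. All roots lay well above both bud samples. The difference was 3.22 ± 0.16 (SE, n = 4 and 2; limma adjusted p = 3.59e-06), 9.33-fold, with a 95% interval of 2.85 to 3.596. It rests on dim bud signals, 86 to 90 raw units against a median of 38 for the negative controls, above their 99th percentile on bud arrays 1 and 3 only, and was 2.11 and 2.21 with normexp.

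CSLD3, the cellulose synthase-like enzyme of the hair wall, stood at 0.24, 0.35, 0.55 and 0.50 in root replicates 1 to 4, against -1.66 and -1.56 in flower bud samples A and B. Its root samples were the most even of the 6 genes, with an SD of 0.14. The difference was 2.02 ± 0.14 (SE, n = 4 and 2; limma adjusted p = 2.41e-05), 4.06-fold, with a 95% interval of 1.67 to 2.37. Raw signals were 3948 to 5588 units on root arrays and 1706 to 1751 on flower bud arrays, so CSLD3 had a clear signal in the buds as well.

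ADF8, which severs actin filaments, stood at 1.36, 1.14, 0.84 and 0.06 in root replicates 1 to 4, against -1.47 and -1.77 in flower bud samples A and B. Replicate 4 was the lowest root by a wide step but still lay 1.53 above the higher bud sample. The difference was 2.47 ± 0.36 (SE, n = 4 and 2; limma adjusted p = 8.88e-04), 5.54-fold, with a 95% interval of 1.60 to 3.34. The intervals of CSLD3 and ADF8 overlap, and those of RHD2 and ADF8 do too, while those of RHD2 and CSLD3 do not. With normexp RHD2 and CSLD3 lay closer together, at 2.11 and 1.96 (75th percentile) and at 2.21 and 2.03 (quantiles). Under spike-in scaling, which put the median of all models at -0.71 in place of -0.03, CSLD3 was at 1.34 (limma adjusted p = 0.00925) and ADF8 at 1.79 (limma adjusted p = 0.0128), both still called.

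The 6 genes did not vary alike among the 4 roots. ADF8 had an SD of 0.57 over the roots, and 9.89% of all models had a larger one; its highest and lowest root differed 2.47-fold. CSLD3 was at the other end, with 76.9% of models more variable and a 1.24-fold range. RSL1, RSL2, RSL4 and RHD2 had ranges of 1.53-fold, 1.27-fold, 1.68-fold and 1.31-fold. Root replicate 4 was the lowest root for RSL4, RHD2 and ADF8 (3 of 6), and root replicate 1 the highest for RSL1, RSL2, RSL4 and ADF8 (4 of 6); over all models replicate 4 was the lowest in 36.5% and replicate 1 the highest in 32.0%. CSLD3 ran the other way, with replicate 1 the lowest root. Before scaling, root array 4 was the dimmest root array and root array 1 the brightest, with 75th percentiles of 2541 and 4499. The part of array brightness in the order of the roots was not tested.

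Replicate 4 minus the mean of the other roots was -1.05 for ADF8, -0.57 for RSL4 and -0.31 for RHD2. The median of the same quantity within genes was -0.25 over the 6 members and -0.30 over the 7 root hair wall genes described next, of which 4 were lowest and 1 highest in replicate 4. Over the 4 other root hair transcription factors tested it was 0.43, with 3 highest and 1 lowest there. The root tissue markers were split: PYK10 was at 4.80 in replicate 4, against 5.89 to 5.92 in the other roots, CASP1 at 4.08, against 3.19 to 3.31, and SCR at 1.80, against 1.19 to 1.74. The part of tissue make-up in these shifts was not tested. Without replicate 4 the difference of ADF8 was 2.73.

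**Figure D3:**
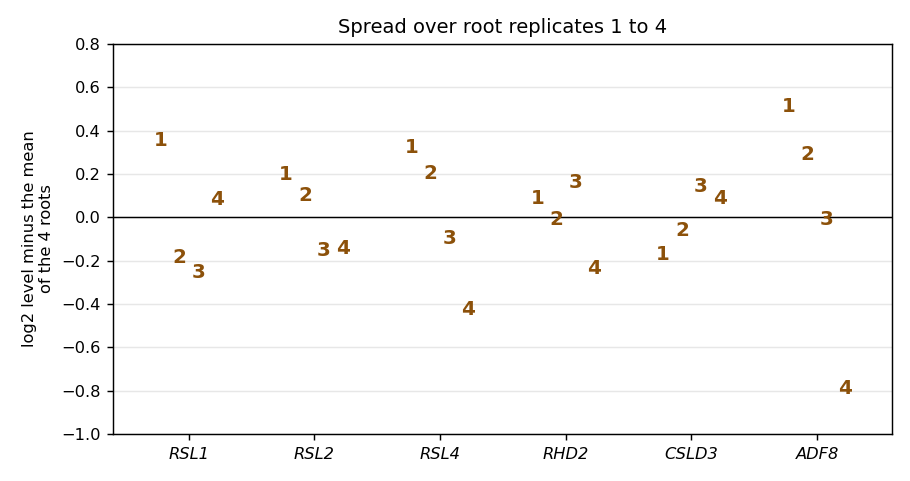
Level of each gene in root replicates 1 to 4 (numerals) minus the mean of the 4 roots, in log2 units. ADF8 spreads widest, with replicate 4 at -0.79, and CSLD3 stays within -0.17 to 0.14.

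Other genes of the root hair pathway were followed in 5 lists from A. thaliana, holding 61 genes, of which 28 had a model and 27 were tested. Of these, 15 were called for root, 3 for flower bud and 9 for neither, with a median of 1.34. The background shares are 23.7% and 27.7%, as above. WER, RSL3, CNGC14, LRX2, PRPL1, PER7 and RHS18 passed the filter on dim signals through root alone, which favoured a difference towards root. With signal required on all 8 arrays, 8 genes were called for root, so the 15 and the median are given as a description. Equal medians put the median of all models at 0.25, and quantile normalization at 0.10.

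Hair wall genes were called higher in root for 6 of 7, beside 23.7% of all models, with a median of 7.86. LRX2, PER7, RHS18 and PRPL1 passed the filter on dim signals through root alone, which favoured a difference towards root, and PRP1 through flower bud alone. With signal required on all 8 arrays 2 genes of the list were called. PER7 (AT1G30870), a class III peroxidase, was at least 5716-fold higher (limma adjusted p = 4.22e-08), a bound for the processed signal, with a log2 difference of 8.69 and 8.42 with normexp. PRPL1 (AT5G05500), a proline-rich wall protein well above background on 3 of 4 flower bud arrays, was at 11.30 ± 0.21 (SE, n = 4 and 2; limma adjusted p = 7.74e-08; 9.43 and 9.24 with normexp). PRP1 was at 1.21 ± 0.63 (limma adjusted p = 0.129), with -5.37, -5.93, -5.02 and -7.41 in root replicates 1 to 4 against -7.12 and -7.16 in flower bud samples A and B. Replicate 4 lay below both bud samples, and without it PRP1 passed at 1.70 (limma adjusted p = 0.00237).

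The factors that decide which epidermal cells make a hair did not share a direction, 2 of 5 being called for root and 2 for flower bud. Over all models the shares were 23.7% and 27.7%, and WER passed the filter on dim signals through root alone. WER (AT5G14750), the MYB factor of non-hair cells, was at least 240-fold higher in root (limma adjusted p = 2.22e-06; 4.21 and 4.12 on the log2 scale with normexp), and JKD (AT5G03150), a zinc finger protein that acts from the cortex, was at 3.41 ± 0.29 (SE, n = 4 and 2; limma adjusted p = 6.05e-05). GL3 and EGL3, bHLH partners of WER that also act in trichomes, the hairs of the shoot, were lower in root at -3.41 ± 0.21 and -1.47 ± 0.24 (limma adjusted p = 1.08e-05 and 0.00148; GL3 at -2.77 and -2.56 with normexp). TTG1, which joins these factors in 1 complex, was at 0.82 ± 0.16 (limma adjusted p = 0.00348), under 2-fold, and passed at 1.097 with array medians made equal. Of 3 measured trichome markers, NOK, well above background on only 1 of 4 root arrays, was lower in root at -7.56 (-5.002 and -4.99 with normexp), TTG2 higher at 1.15 and SIM at 0.64 ± 0.31 (limma adjusted p = 0.107); the part of trichomes in the bud levels of GL3 and EGL3 was not tested. TTG2 lost its call with normexp, under spike-in scaling and without flower bud sample A (0.63, 0.64, 0.47 and 0.85).

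Among other transcription factors of hair growth, RSL3 (AT2G14760), a class II relative of RSL2 and RSL4, was likewise measured in root only. It stood at -3.32, -3.58, -3.71 and -4.06 in root replicates 1 to 4, against -9.41 and -9.27 in flower bud samples A and B. It was well above background on no flower bud array and was at least 49.9-fold higher in root (limma adjusted p = 1.20e-06; 2.66 and 2.61 on the log2 scale with normexp). RSL5, another class II factor, was well above background on 2 root arrays and no flower bud array and was therefore not tested; its levels were -6.66, -6.75, -7.69 and -9.48 in root replicates 1 to 4, against -10.14 and -9.79 in flower bud samples A and B. Its replicate 4 was again the lowest root.

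LRL1 and LRL2, bHLH factors also needed for hair growth, were higher in root by less, at 1.09 ± 0.30 and 1.34 ± 0.23 (SE, n = 4 and 2; limma adjusted p = 0.0161 and 0.00182). Both were measured on all arrays, and their calls depended on scaling. Under spike-in scaling they were at 0.41 and 0.67 (limma adjusted p = 0.382 and 0.144), and LRL1 was also not called when root replicate 4 (0.87, under 2-fold) or flower bud sample B (0.95, limma adjusted p = 0.0945) was left out. GTL1 (AT1G33240), a trihelix factor that holds hair growth back, was lower in root at -2.49 ± 0.23 (limma adjusted p = 8.38e-05).

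Of 5 signalling genes 3 were called for root and 0 for flower bud, beside 23.7% and 27.7% of all models. Among the 3, CNGC14 passed the filter on dim signals through root alone. CNGC14 (AT2G24610), a calcium channel of the hair tip, was at 6.77 ± 0.56 (SE, n = 4 and 2; limma adjusted p = 4.97e-05; 4.85 with normexp), with bud samples at -8.42 and -6.32 and only 2 of 4 bud arrays well above background. GEF3 (AT4G00460), which marks the site where a hair will emerge, was at 3.02 ± 0.22 (limma adjusted p = 2.64e-05). ROP2, the GTPase recruited there, was at 1.89 ± 0.16 (limma adjusted p = 6.24e-05), and is named after its value was seen. FER, a receptor kinase upstream of ROP2 in hairs and active in many organs, was at 0.45 ± 0.16 (limma adjusted p = 0.0385, under 2-fold; -0.23 under spike-in scaling), and ROP6 was at -0.19 ± 0.15 (limma adjusted p = 0.296; 0.09 with equal medians).

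Genes of the cytoskeleton and of secretion mostly stayed under 2-fold. Of 6 genes 1 was called, for root, beside 23.7% of all models called for root and 51.4% called in either direction. In all 6 every root sample lay above both flower bud samples, which held for 39.4% of all models. ACT8 (AT1G49240), a vegetative actin, was higher in root at 2.44 ± 0.12 (SE, n = 4 and 2; limma adjusted p = 3.75e-06), with root samples at 5.11 to 5.22 against 2.69 and 2.76 in flower bud. The other 5 are named after their values were seen and had differences of 0.44 to 0.94: the actin ACT7, the myosin XI-2, RHD3 of the endoplasmic reticulum, the phosphoinositide phosphatase RHD4 and RABA4B, a GTPase on secretory vesicles. Their limma adjusted p ran from 0.00281 for RHD4 to 0.0343 for ACT7, so they missed the call by their fold alone. With equal medians RHD3, RHD4 and RABA4B passed as higher in root at 1.01, 1.11 and 1.22, RABA4B also passed without root replicate 4 (1.06), and under spike-in scaling ACT7 and XI-2 turned to -0.23 and -0.02.

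The families of RHD2, CSLD3 and ADF8 hold genes of other organs, so each was set beside its relatives. In the actin-depolymerizing factors, ADF8 was the 1 of 8 tested called higher in root, while 2 were called higher in flower bud and 5 were not called; over all models 51.4% were called in either direction. ADF7 and ADF10, which act in A. thaliana pollen, were lower in root by at least 2959-fold and at least 1051-fold (limma adjusted p = 4.23e-08 and 4.79e-08) and were well above background on no root array. For both the bound is the measured fold of the processed signal. ADF5, ADF2 and ADF3 were at 0.92 ± 0.14, 0.39 ± 0.13 and -0.01 ± 0.22, under 2-fold, and ADF9 at -1.44 ± 0.66 (limma adjusted p = 0.0898). ADF1 was at 1.096 ± 0.86 (limma adjusted p = 0.289), with root replicates at 1.20, 1.23, 0.72 and 0.31 against 1.46 in flower bud sample A and -1.92 in sample B. The bud samples lay on both sides of all roots, so ADF1 has no direction here: it was at 2.79 without sample A and -0.60 without sample B. ADF5 passed at 1.20 with equal medians and at 1.02 without sample A, ADF2 turned to -0.28 under spike-in scaling, and ADF9 passed as higher in flower bud there (-2.11), without root replicate 4 (-1.85) and with all 8 arrays as separate samples (limma adjusted p = 0.0222).

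Of 5 cellulose synthase-like D genes, CSLD2 and CSLD3, the pair with roles in A. thaliana root hairs, were higher in root. Over all models 23.7% were called for root and 27.7% for flower bud. CSLD2 (AT5G16910) stood at 1.51, 1.79, 2.01 and 1.89 in root replicates 1 to 4, against -0.41 and -0.44 in flower bud samples A and B. Its replicate 1 was the lowest root, as for CSLD3, and its difference of 2.23 ± 0.17 (SE, n = 4 and 2; limma adjusted p = 3.51e-05) lies within the 95% interval of CSLD3. CSLD1 and CSLD4, which build the wall of the pollen tube, were lower in root by at least 109-fold and at least 1468-fold (limma adjusted p = 9.88e-08 and 4.93e-08) and were well above background on no root array. With normexp and the 75th percentile ADF7, ADF10, CSLD1 and CSLD4 stayed called, at -7.66, -6.09, -2.97 and -6.61. All 4 passed the filter through flower bud alone, which largely fixed their direction. With signal required on all 8 arrays 0 genes of either family were called for flower bud because these 4 were no longer tested. CSLD6 was at -0.96 ± 0.37 (limma adjusted p = 0.0519) and passed as higher in flower bud under spike-in scaling (-1.64) and without root replicate 4 (-1.19).

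Of the NADPH oxidases 4 of 5 were called for root, beside 23.7% of all models, and 0 for flower bud; RBOHG and RBOHB passed the filter through root alone, and 2 were called with signal required on all 8 arrays; the oxidases of pollen, RBOHH and RBOHJ, were not matched by code and are not analysed here. RHD2 had the smallest difference of the 4 called. RBOHG (AT4G25090) was at least 632-fold higher in root (limma adjusted p = 7.84e-08), and RBOHB (AT1G09090) at least 115-fold higher (limma adjusted p = 4.40e-06). Neither stood out from background on any flower bud array, and for RBOHB the bound is the measured fold of the processed signal. RBOHI (AT4G11230) was at 3.84 ± 0.19 (SE, n = 4 and 2; limma adjusted p = 3.83e-06; 3.09 with normexp and the 75th percentile). RBOHF, an oxidase of stress and defence responses, was at 0.64 ± 0.24 (limma adjusted p = 0.0460), under 2-fold; it was at 1.04 without flower bud sample B and -0.04 under spike-in scaling. With normexp RBOHG was at 5.66 and 5.50 and RBOHB at 3.35 and 3.26.

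**Figure D4:**
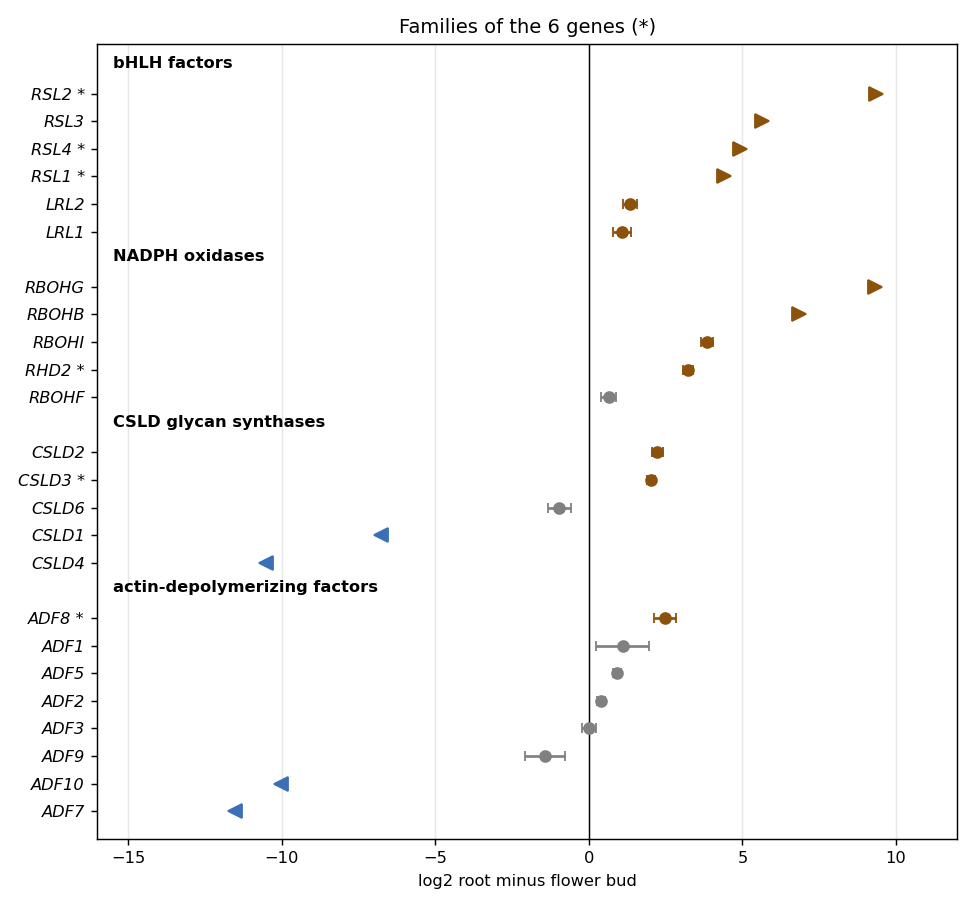
Difference between root and flower bud (log2, root minus flower bud) for the 6 genes (asterisks) and their relatives. Circles with bars are estimates ± SE, and triangles are bounds on the processed signal for genes at background throughout 1 tissue. Brown and blue are calls for root and flower bud and grey is not called. ADF7, ADF10, CSLD1 and CSLD4 lie far to the flower bud side and ADF8, CSLD2 and CSLD3 to the root side.

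The wider list of pollen and pollen tube markers, which includes the 4 pollen genes just named, was called for flower bud in 7 of 7 tested, beside 27.7% of all models. All but AGP6 passed the filter through flower bud alone, which favoured a difference towards flower bud, and 1 was called with signal required on all 8 arrays. Flower bud sample B minus sample A ran only from -0.06 for CSLD4 to 0.12 for AGP11 among these markers. It was -3.39 for ADF1, which is not among them, against -0.30 for ADF8 and -0.28 to 0.33 for the other 5 members. CNGC14 was higher in sample B, at 2.10. The root markers CASP1, PYK10 and SCR were lower there, at -1.24, -1.02 and -0.19.

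The mean level of the 6 genes over the 6 samples, each gene centred on its own mean, served to look for genes of like pattern among 11617 tested models with a locus code. The highest Pearson r were 0.9999 for AT1G76990, 0.9998 for AT1G79530, 0.9998 for RSL3 (AT2G14760), 0.9998 for AT1G13635 and 0.9998 for AT5G47740, with differences of 2.91, 2.06, 5.68, 8.12 and 9.66. These 6 samples share 1 slide and fall into 2 tissues, and 957 models had an r above 0.99, so the measure says little beyond the step between tissues. Of the members themselves, ADF8 had the lowest r with the mean, 0.961, and RSL2 the highest, 0.999. Each member is part of that mean, in which RSL2 has the largest difference, so these r values are partly built in.

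Each of the 6 genes kept its direction and its call in every alternative in which it was tested, as the plot of differences by processing setting shows. The order of the members did not hold: as reported RSL1 and RSL4 had larger differences than RHD2, CSLD3 and ADF8, and with normexp and the 75th percentile RSL1, at 1.52, had the smallest of the 6 and RSL4, at 1.96, came level with CSLD3, also at 1.96.

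**Figure D5:**
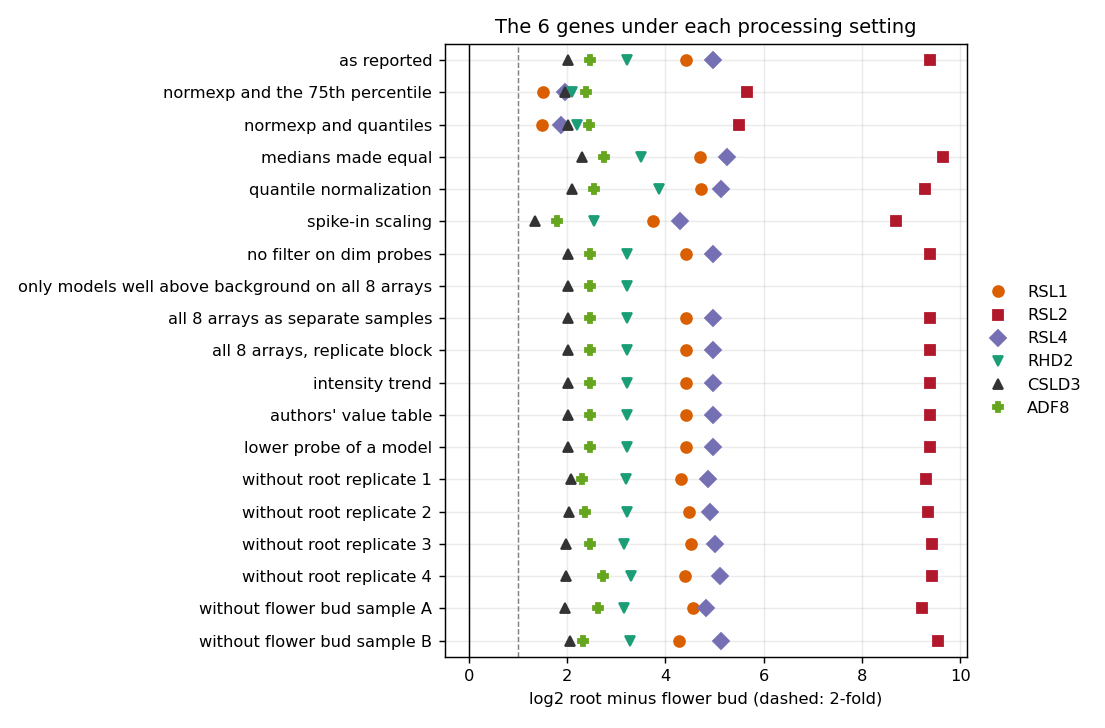
Difference between root and flower bud (log2, root minus flower bud) of the 6 genes, by symbol, under the reported processing and each alternative; the solid line is no difference and the dashed line is 2-fold. All points lie to the right of the 2-fold line, and with normexp those of RSL1, RSL2, RSL4 and RHD2 move towards it, those of RSL1 to 1.52 and 1.499.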

How the data were processed

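Per the file headers, the deposited scanner files come from Agilent Feature Extraction 10.10.1.1, and the spot intensity used had local background and a spatial trend removed, with no scaling of 1 array to another. Each file's 62976 features were used and 12 to 88 leftover lines after them ignored. The authors' deposited value table holds log2 values; it matched the values below, centred on each probe's median over arrays, at r = 1.000 on each array (99% of probes within 0.0051). Its making is not stated. Genome build and probe sequences were not used here.

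Outlier spots were dropped, log2 signals averaged per probe (15 probes without a usable spot on some array removed), and each array's 75th percentile subtracted. A probe was well above background where at least 0.5 of its spots were. Of models with several probes (477) the brighter was used. Models well above background on all arrays of a tissue (26420) were tested with limma 3.58.1 in R 4.3.3 (package data.table, version 1.17.8; Python 3.11.15, numpy 2.4.6, pandas 2.3.3, matplotlib 3.10.9), two-sided, 4 residual degrees of freedom; intervals are from the moderated fit. The fit was tested on simulated data with independent normal noise and planted shifts. That checks the code, and not the effect of background, the merged bud arrays or the slide row shared with tissue. P-values measure the spread between samples of a tissue, mostly among the roots, which are the larger group. Each root pool was on its own array, so spread between pools and between arrays cannot be told apart.

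Members, lists and tests were chosen with earlier results of these data known. Named were all members, the 2 strongest calls per direction and the uncalled genes (if 4 or fewer) of each pathway list, whole families, and the 5 models of most similar pattern. The alternatives were other background corrections (normexp, offset 50), scalings, filters, a variance trend, the dimmer probe, the deposited table, all 8 arrays with and without a block, and each sample left out.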

Additional observations from a re-analysis of the deposited data

Results flagged for a closer look

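None of the 6 genes had a root replicate that stood far from the other 3 by Dixon's 95% criterion on the gap to the nearest other sample over the whole range, which is the value given below. Of 61 genes checked in the lists, 6 did, where chance gives about 1 in 20 for each gene. The 61 genes share the same roots and are not independent, so the excess over that rate was not tested. In root replicate 4 these were PYK10 (0.969), lower there than in the other roots, PER7 (0.847), also lower, AGP11 (0.899), higher, and CASP1 (0.860), higher. AGP11 was well above background on only 1 root array. In root replicate 3 they were COBL9 (0.906), higher there, and TTG2 (0.873), lower. Flower bud held 2 samples and was not checked in this way.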

How the results depend on the processing

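All 105 fold changes of the 6 genes under alternatives kept direction and call. Many of these could not change direction. The filters, the 8-array fits, the variance trend and the dimmer probe leave a member's difference as it was by construction. The deposited table holds nearly the same values, with RSL1 at 4.43 and ADF8 at 2.47. Only other background corrections, other scalings and leaving samples out could move the differences. The range with 1 sample left out was 9.21 to 9.54 for RSL2, 4.82 to 5.14 for RSL4, 4.29 to 4.57 for RSL1, 3.16 to 3.30 for RHD2, 1.97 to 2.08 for CSLD3 and 2.30 to 2.73 for ADF8; a lone flower bud sample is assumed there to vary like the roots. Requiring signal well above background on all 8 arrays removes the 3 bHLH factors by construction, leaving 3 members called and 8 pathway genes called higher in root instead of 15. Elsewhere the 6 members stayed called and pathway calls for root ran from 13 (spike-in scaling) to 19 (equal medians), with 3 for flower bud throughout. Flower buds held 53.9% of all calls as reported, 72.7% under spike-in scaling and 45.2% with equal medians. Of 971 values of other genes, 12 changed sign, none of them called in the main processing: ADF3 to 0.00114 with normexp and the 75th percentile and 0.27 with equal medians, ROP6 to 0.0915 with equal medians, and under spike-in scaling FER (-0.23), ACT7 (-0.23), XI-2 (-0.0209), ADF2 (-0.28), RBOHF (-0.0362) and SIM (-0.0359). With 1 sample left out ADF3 ran from -0.11 to 0.14 and ADF1 from -0.60 to 2.79. The causes were not tested. Same-numbered root and bud arrays are not said to share plants, and their deviations correlated at -0.04 to 0.07; the replicate block, on all 8 arrays, left 6 members and 16 pathway genes called higher in root. PRP1 passed with quantile normalization (2.06) and in both 8-array fits (1.21), adjusted p = 0.0372 without and 0.0456 with the block, and ADF9 (-1.44) at 0.0222 and 0.0300 there. RSL1 and RHD2 have a single spot, and dim bud signals limit the folds of all genes but CSLD3 and ADF8 among the 6.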
